A study of Mus musculus with 4 samples.

Results

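Transcripts of 9 enzymes that feed and turn the tricarboxylic acid (TCA) cycle were described in mouse lung tumours: Pdha1, Pdhb, Cs, Idh3a, Idh2, Ogdh, Sucla2, Fh1 and Mdh2. They were chosen by symbol from the 24391 genes listed in each count file, and all 9 were found. RNA was sequenced from 4 tumour samples in 2 groups of 2. K-Ras tumours came from mice with K-Ras LSL-G12D, a Cre-activated oncogenic allele, and K-Ras Mll4-/- tumours came from mice with the same allele and floxed Mll4 alleles, so the activated K-Ras allele is shared by both groups. Leukocytes bearing CD45 were depleted from the digested tumours before RNA extraction. The age of the mice, the Cre source and whether the samples of a group came from different mice were not given in the sources used here, so p-values measure the spread between these samples, which may be technical. In bulk RNA, fewer cells of a type and less RNA per cell cannot be told apart.

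Pyruvate dehydrogenase is the mitochondrial complex that turns pyruvate from glycolysis into acetyl-CoA. The cycle then oxidises the acetyl group, passes electrons to the respiratory chain and supplies citrate, 2-oxoglutarate and oxaloacetate for biosynthesis. In K-Ras-driven lung tumours the cycle is known to be fed by glucose carbon through both pyruvate dehydrogenase and pyruvate carboxylase.

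Reads assigned to genes numbered 26683033 to 36677987 per sample, with overlapping group ranges, and each of the 9 genes had between 831 and 9560 reads in every sample. All 9 passed the filter on low counts, as did 16001 genes in all. Kmt2d, the current symbol of Mll4, had 367 and 317 CPM (reads per gene scaled to the sample's normalised library size) in the K-Ras Mll4-/- samples and 395 and 526 CPM in the K-Ras samples (log2 fold change -0.43, SE 0.21, edgeR quasi-likelihood adjusted p = 0.302). That value was -0.064 with offsets for GC content and transcript length, -0.22 without K-Ras replicate 2 and -0.62 without K-Ras replicate 1. Totals per gene do not resolve a deletion of single exons, so the genotype was taken from the labels.

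None of the 9 genes passed the test between genotypes (edgeR quasi-likelihood test, Benjamini-Hochberg adjusted p under 0.05), where 6 of 16001 genes did, or 0.0375%. The fitted differences were small and mostly in the same direction. The log2 fold change, K-Ras Mll4-/- minus K-Ras, was above 0 for 8 of the 9 genes, against 48.8% of all genes tested. Its median was 0.24, against -0.01 over all genes tested. For 6 of the 9 genes both K-Ras Mll4-/- samples were above both K-Ras samples, and for 0 they were both below, while 29.9% of all genes were above and 28.5% below in that way. At an unadjusted p under 0.05 there were 2 of the 9 genes, Pdha1 and Mdh2, both higher in K-Ras Mll4-/- tumours, against 11.4% of all genes in that direction and 21.8% in either direction. Under upper-quartile or total-count scaling 1 of the 9 had such a p. The DESeq2 Wald test and the edgeR likelihood ratio test each called 1 of the 9, Pdha1, where they called 5.02% and 4.85% of all genes as higher and 10.0% and 9.39% in either direction. limma-voom called 0 of the 9 and 0 of all genes, of which 3228 had an unadjusted p under 0.05. The summed level of the 9 genes was 933 and 948 CPM in the K-Ras Mll4-/- samples against 769 and 825 CPM in K-Ras, without overlap.

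**Figure D1:**
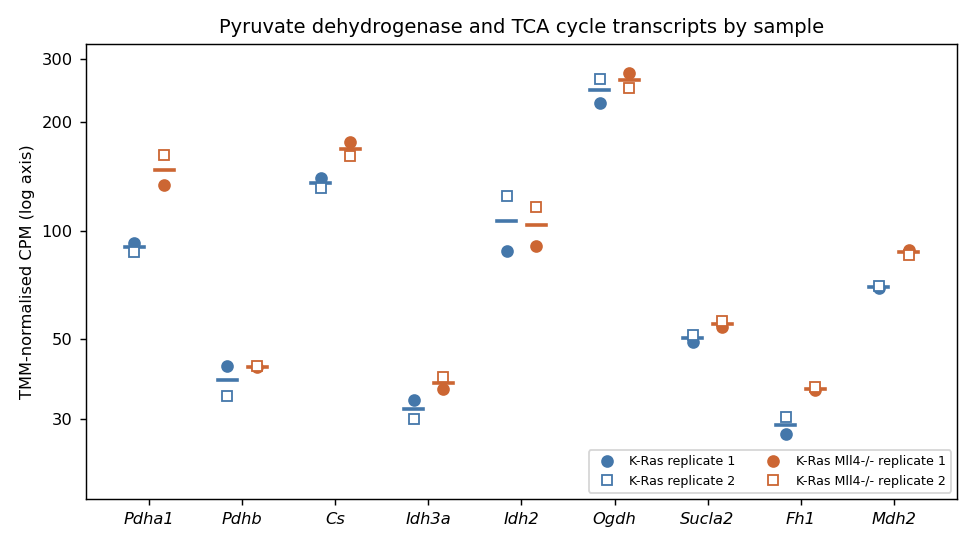
TMM-normalised CPM of the 9 genes (log axis) in the 2 K-Ras samples (blue) and the 2 K-Ras Mll4-/- samples (orange), with replicate 1 filled and replicate 2 open and a bar at each group mean. The groups lie apart for Pdha1, Cs, Idh3a, Sucla2, Fh1 and Mdh2 and overlap for Pdhb, Idh2 and Ogdh.

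Pdha1 encodes the alpha subunit of the E1 component of pyruvate dehydrogenase, the subunit that regulatory kinases phosphorylate to switch the complex off. It was at 134 and 162 CPM in the K-Ras Mll4-/- samples and at 92.5 and 87.3 CPM in the K-Ras samples. Both K-Ras Mll4-/- samples were above both K-Ras samples. The difference was 1.64-fold, a log2 fold change of 0.72 (SE 0.15, 95% interval 0.32 to 1.11), with an edgeR quasi-likelihood adjusted p of 0.154. It was called by DESeq2 (adjusted p = 0.0181) and by the edgeR likelihood ratio test (adjusted p = 0.0204), and over all 16 alternative fits the adjusted p ran from 0.0181 to 0.772. Its log2 fold change was between 0.57 and 0.85 when single samples were left out. Pdha1 is X-linked. The Y-linked Ddx3y, added after its values were seen, was at 112.5 and 134 CPM in the K-Ras Mll4-/- tumours and at 162.6 and 138 CPM in K-Ras tumours, lower in both. Xist, the X-inactivation transcript, was between 3.20 and 4.30 CPM in the 4 samples. The part of the sex of the mice in the Pdha1 difference was not tested. The gene span of Pdha1 overlaps Map3k15 on the other strand, which had 51 to 123 reads per sample against 2830 to 5215 for Pdha1.

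Pdhb encodes the beta subunit of the same E1 component. It was at 41.86 and 41.98 CPM in the K-Ras Mll4-/- samples and at 42.2 and 34.8 CPM in the K-Ras samples. The groups overlapped, since K-Ras replicate 1 was the highest of the 4. The log2 fold change was 0.12 (SE 0.15, 95% interval -0.27 to 0.52, edgeR quasi-likelihood adjusted p = 0.656), and without K-Ras replicate 2 it was -0.021. The number of Pdha1 reads per Pdhb read was 3.20 and 3.85 in K-Ras Mll4-/- tumours, against 2.20 and 2.51 in K-Ras tumours. This ratio, which needs no scaling between samples, was 3.53 ± 0.463 in K-Ras Mll4-/- and 2.35 ± 0.221 in K-Ras tumours (SD, n = 2 each) and did not overlap. The difference was 1.497-fold, and an exact two-sided permutation test gave p = 0.333, the smallest that 2 samples against 2 can give (0.833 after Benjamini-Hochberg adjustment over 5 pairs of genes).

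The subunits share an enzyme and differed in their fitted change, so the promoter windows of both are shown. Each is the 250 bases before the RefSeq start (GRCm38.p6). RefSeq windows were matched for 8 of the 9 genes, all except Idh3a. The Pdha1 window is chrX:160138431-160138680 and the Pdhb window is chr14:8172993-8173242, both on the minus strand. Capitals mark the CCAAT box on either strand (CCAAT, or ATTGG on the other strand).
Pdha1: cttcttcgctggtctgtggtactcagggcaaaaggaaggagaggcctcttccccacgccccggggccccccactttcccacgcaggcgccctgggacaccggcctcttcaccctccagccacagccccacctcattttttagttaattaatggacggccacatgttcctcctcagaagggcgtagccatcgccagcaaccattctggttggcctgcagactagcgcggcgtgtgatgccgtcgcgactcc
Pdhb: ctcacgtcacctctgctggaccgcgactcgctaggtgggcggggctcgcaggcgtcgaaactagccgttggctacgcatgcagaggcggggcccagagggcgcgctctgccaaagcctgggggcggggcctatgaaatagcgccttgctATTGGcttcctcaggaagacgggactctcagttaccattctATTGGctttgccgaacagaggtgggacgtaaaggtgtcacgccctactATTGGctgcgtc
The Pdhb window held 3 CCAAT boxes and the Pdha1 window 0, and 33.9% of 32851 windows of this length held at least 1. The GC box GGGCGG was present 2 times in the Pdhb window and 0 times in the Pdha1 window, against 32.7% of all windows with at least 1. Of the 7 members with 1 window, 4 held a CCAAT box (Pdhb, Cs, Idh2 and Fh1). A GC box was held by 6 of these 7, all except Pdha1. Neither window held AAGGTCA (4.08% of all windows), CCGGAAGT (2.88%), TGACGTCA (1.55%) or CACGTG (6.02%), the cores recognised by oestrogen-related receptors, ETS factors, CREB and E-box factors. Both strands were searched, and none of the motifs lies within another. Such matches describe letters only.

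Cs encodes citrate synthase, which joins acetyl-CoA to oxaloacetate at the entry to the cycle. It was at 176 and 161 CPM in the K-Ras Mll4-/- samples and at 140.1 and 131 CPM in the K-Ras samples, without overlap. The log2 fold change was 0.32 (SE 0.13, 95% interval -0.03 to 0.66, edgeR quasi-likelihood adjusted p = 0.253).

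Idh3a encodes the catalytic subunit of the NAD-dependent isocitrate dehydrogenase, the form that belongs to the cycle proper. It was at 36.4 and 39.3 CPM in the K-Ras Mll4-/- samples and at 34.0 and 29.9 CPM in the K-Ras samples. The groups did not overlap, and the log2 fold change was 0.24 (SE 0.14, 95% interval -0.13 to 0.61, edgeR quasi-likelihood adjusted p = 0.363), or 0.14 without K-Ras replicate 2. Idh2 encodes the mitochondrial NADP-dependent isocitrate dehydrogenase, which carries the same carbon conversion in either direction and can make NADPH. It was at 90.9 and 116 CPM in the K-Ras Mll4-/- samples and at 87.6 and 125.02 CPM in the K-Ras samples. The sample numbered 2 was the higher in both groups, and the spread within each group exceeded the difference between them. The log2 fold change was -0.04 (SE 0.24, 95% interval -0.67 to 0.59, edgeR quasi-likelihood adjusted p = 0.941), and its sign changed when K-Ras replicate 2 (0.23) or K-Ras Mll4-/- replicate 1 (0.13) was left out. Of the 9 genes, Idh2 had the largest SE and the only negative fitted value.

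The read ratio of Idh3a to Idh2 was 0.400 and 0.338 in K-Ras Mll4-/- tumours, against 0.388 and 0.239 in K-Ras tumours, and the groups overlapped (exact two-sided permutation p = 0.667, adjusted p = 1 over the 5 pairs). The ratio of Idh3a to Idh3b, a regulatory subunit of the same enzyme, was 0.390 and 0.480 against 0.431 and 0.412, also with overlap (exact two-sided permutation p = 1). The log2 difference of that ratio was 0.038.

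Ogdh encodes the E1 component of the 2-oxoglutarate dehydrogenase complex, the decarboxylating step after isocitrate dehydrogenase. It was at 275 and 248.8 CPM in the K-Ras Mll4-/- samples and at 227 and 265 CPM in the K-Ras tumours, with overlap. The log2 fold change was 0.09 (SE 0.16, 95% interval -0.33 to 0.51, edgeR quasi-likelihood adjusted p = 0.760). It was -0.011 without K-Ras replicate 1 and 0.21 with offsets for GC content and transcript length.

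Sucla2 encodes the beta subunit of succinyl-CoA synthetase that makes the enzyme ADP-specific. It was at 54.0 and 56.1 CPM in the K-Ras Mll4-/- samples and at 49.1 and 51.4 CPM in the K-Ras samples. The groups did not overlap but lay close, with a log2 fold change of 0.13 (SE 0.12, 95% interval -0.18 to 0.44, edgeR quasi-likelihood adjusted p = 0.540). With the GC and length offsets it was 0.010, and with upper-quartile scaling 0.077. The alternative beta subunit Suclg2, which makes the enzyme GDP-specific, was at 57.8 and 61.6 CPM in the K-Ras Mll4-/- samples. Suclg2 was at 38.5 and 32.0 CPM in the K-Ras samples, a log2 fold change of 0.76 (SE 0.15, edgeR quasi-likelihood adjusted p = 0.147). Suclg1, the alpha subunit that both forms share, had a log2 fold change of 0.62 (SE 0.13, edgeR quasi-likelihood adjusted p = 0.156). DESeq2 called both (adjusted p = 0.0169 for Suclg2 and 0.0441 for Suclg1), and the likelihood ratio test called Suclg2 (adjusted p = 0.0183). The read ratio of Sucla2 to Suclg2 was 0.935 and 0.911 in K-Ras Mll4-/- tumours, against 1.27 and 1.60 in K-Ras tumours. The ratio did not overlap between the groups (exact two-sided permutation p = 0.333, adjusted p = 0.833 over the 5 pairs), and its log2 difference was -0.63, or between -0.80 and -0.47 with single samples left out.

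**Figure D2:**
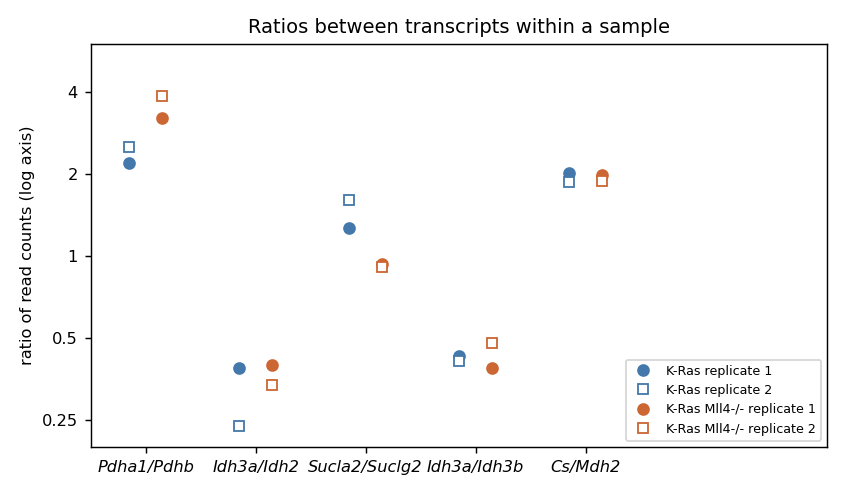
Ratios of read counts between pairs of transcripts within each sample (log axis), for K-Ras (blue) and K-Ras Mll4-/- samples (orange), replicate 1 filled and replicate 2 open. The ratio of Pdha1 to Pdhb is higher and that of Sucla2 to Suclg2 lower in both K-Ras Mll4-/- samples, and the other 3 ratios overlap between the groups.

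Fh1 encodes fumarate hydratase, which turns fumarate into malate and is a tumour suppressor in the kidney. It was at 36.0 and 36.7 CPM in the K-Ras Mll4-/- samples and at 27.2 and 30.5 CPM in the K-Ras samples, without overlap. Its log2 fold change was 0.34 (SE 0.14, 95% interval -0.02 to 0.69, edgeR quasi-likelihood adjusted p = 0.245). Fh1 overlaps the span of Kmo on the other strand, which had at most 127 reads in a sample.

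Mdh2 encodes the mitochondrial malate dehydrogenase, which regenerates oxaloacetate and takes part in the malate-aspartate shuttle. It was at 88.4 and 85.7 CPM in the K-Ras Mll4-/- samples and at 69.5 and 70.1 CPM in the K-Ras samples. The samples of each group lay close together and the groups apart. The fitted difference was a log2 fold change of 0.32 (SE 0.11, 95% interval 0.02 to 0.62, edgeR quasi-likelihood adjusted p = 0.216), and it stayed between 0.30 and 0.33 when single samples were left out. The read ratio of Cs to Mdh2, the enzymes on either side of oxaloacetate, was 1.99 and 1.88 in K-Ras Mll4-/- tumours, against 2.01 and 1.87 in K-Ras tumours (exact two-sided permutation p = 1).

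The Mdh2 window (GRCm38.p6, chr5:135778399-135778648, plus strand) is shown because it repeats a palindrome that few windows hold. Capitals mark TCTCGCGAGA and the cAMP response element TGACGTCA.
Mdh2: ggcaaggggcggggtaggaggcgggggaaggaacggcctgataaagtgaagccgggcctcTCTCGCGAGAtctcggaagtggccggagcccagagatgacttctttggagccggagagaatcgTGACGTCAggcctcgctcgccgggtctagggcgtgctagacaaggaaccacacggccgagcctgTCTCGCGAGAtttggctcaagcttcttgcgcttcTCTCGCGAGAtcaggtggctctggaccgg
TCTCGCGAGA occurred 3 times in this window, while 0.390% of all windows of this length held at least 1. The search, for any 10-base palindrome present 3 or more times in a window of the 9 genes, was made after the sequences had been seen. No other member window held it.

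**Figure D3:**
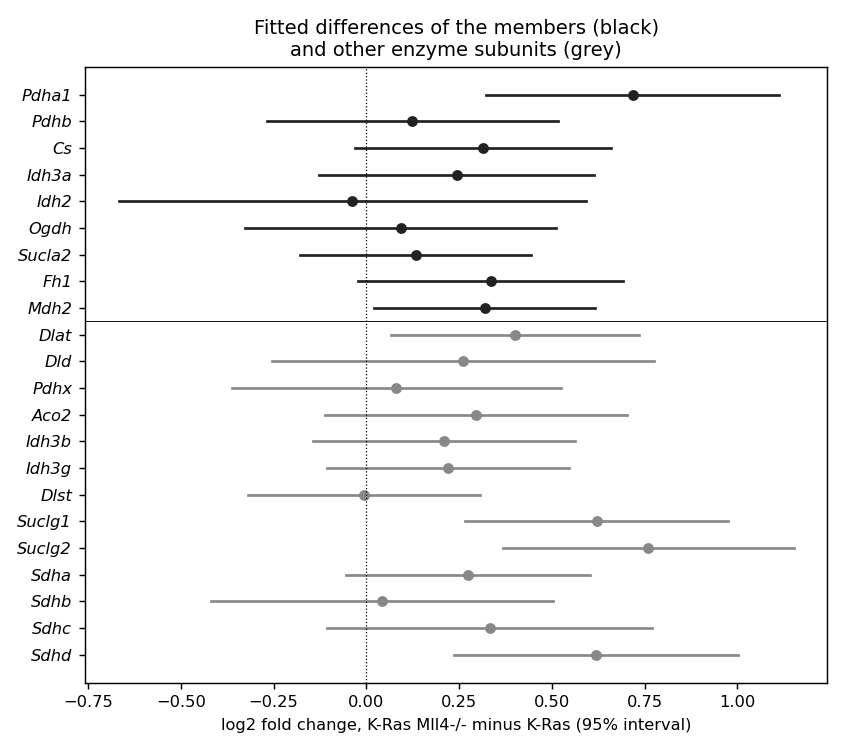
Fitted log2 fold changes (points) with 95% intervals (lines) from the edgeR quasi-likelihood fit, for the 9 genes in black and 13 other subunits and cycle enzymes in grey. Of the 9 genes the intervals of Pdha1 and Mdh2 lie above 0 and the other 7 include 0, and these intervals are not adjusted for the number of genes.

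Levels of different genes were compared as CPM per kilobase of the longest GENCODE M21 transcript. Ogdh had the highest level at 61.5 over the 4 samples, followed by Idh2 (58.6), Cs (50.7), Mdh2 (48.8), Pdha1 (41.7), Sucla2 (23.6), Pdhb (16.9), Idh3a (13.5) and Fh1 (12.4). Ogdh, Idh2, Cs, Mdh2 and Pdha1 followed each other with overlapping ranges, and so did Pdhb, Idh3a and Fh1. The ranges of Pdha1 and Sucla2 lay apart, as did those of Sucla2 and Pdhb. Pdha1 reached 51.9 ± 6.93 CPM per kilobase in K-Ras Mll4-/- tumours, near Mdh2 at 54.2 ± 1.19, and 31.6 ± 1.30 in K-Ras tumours, where Mdh2 was at 43.5 ± 0.238 (SD, n = 2 each).

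Genes around the cycle were read from the same fit, 54 in 6 lists, and 0 of them passed the edgeR quasi-likelihood test. At an unadjusted p under 0.05 there were 15, all higher in K-Ras Mll4-/- tumours, where 11.4% of all genes were higher and 21.8% passed in either direction. The median log2 fold change over the 54 was 0.25, against -0.01 over all genes. DESeq2 called 6 of the 54, all higher, where it called 5.02% of all genes as higher and 10.0% in either direction. The likelihood ratio test called 4, all higher, where it called 4.85% and 9.39%. The shares of the 54 lay near those of all genes called in either direction. They were above those of all genes called as higher, but rest on 6 and 4 genes and are not read as a result about the lists. Genes of each list with the smallest p are named here.

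Among 13 other subunits of these enzymes and cycle enzymes, 12 had a positive log2 fold change and the median was 0.27. The smallest p-values belonged to Suclg2, Suclg1 and Sdhd. Sdhd, a membrane anchor of succinate dehydrogenase, had a log2 fold change of 0.62 (SE 0.15, edgeR quasi-likelihood adjusted p = 0.163). Of the other components of pyruvate dehydrogenase, named after their values were seen, the acetyltransferase Dlat had 0.40, the dehydrogenase Dld 0.26 and the binding protein Pdhx 0.08 on the log2 scale, with edgeR adjusted p from 0.195 to 0.804. With single samples left out Dld ran from 0.028 to 0.52 and Pdhx from -0.055 to 0.22.

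The 7 kinases and phosphatases of pyruvate dehydrogenase had a median log2 fold change of 0.06, and 4 were positive. Pdk1, a kinase that inhibits the complex through Pdha1 and is a known hypoxia target, was at 116 and 134 CPM in the K-Ras Mll4-/- samples and at 77.5 and 57.1 CPM in the K-Ras samples. Its log2 fold change was 0.89 (SE 0.20, edgeR quasi-likelihood adjusted p = 0.157), and DESeq2 (adjusted p = 0.0130) and the likelihood ratio test (adjusted p = 0.0114) called it. Pdp2, a phosphatase that restores activity, had -0.47 (SE 0.22, edgeR adjusted p = 0.285), and the kinase Pdk3 had 0.28 (SE 0.17, edgeR adjusted p = 0.370). Without K-Ras replicate 1 they were at -0.23 and 0.17.

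Of 8 genes of pyruvate entry and anaplerosis, the refilling of the cycle, 6 were positive with a median of 0.19. Pcx, the pyruvate carboxylase that makes oxaloacetate without pyruvate dehydrogenase, was at 215 and 255 CPM in the K-Ras Mll4-/- samples and at 97.9 and 117 CPM in the K-Ras samples. Its log2 fold change of 1.13 (SE 0.17, edgeR quasi-likelihood adjusted p = 0.136) had the smallest p of its list, and DESeq2 (adjusted p = 5.51e-05) and the likelihood ratio test (adjusted p = 1.36e-04) called it. The citrate exporter Slc25a1 was fitted at 0.61 (SE 0.15, edgeR adjusted p = 0.168).

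Of 9 cytosolic and shuttle counterparts, 7 were positive with a median of 0.37. The cytosolic malate dehydrogenase Mdh1 had a log2 fold change of 0.48 (SE 0.13), the cytosolic NADP-dependent isocitrate dehydrogenase Idh1 had 0.53 (SE 0.14) and the cytosolic aconitase Aco1 had 0.66 (SE 0.20), with edgeR adjusted p of 0.177, 0.177 and 0.187. Aco1 was at 0.44 without K-Ras Mll4-/- replicate 2. Of 8 regulators of mitochondrial biogenesis, 7 were positive with a median of 0.28. The smallest p-values belonged to Pprc1 at 0.37 (SE 0.12), Esrra at 0.31 (SE 0.15) and Tfam at 0.26 (SE 0.15), with edgeR adjusted p of 0.201, 0.313 and 0.350. Pprc1 was at 0.55 with the GC and length offsets. Of 9 genes that bring fatty acids and ketones to acetyl-CoA, 6 were positive with a median of 0.10. Acadm, the medium-chain acyl-CoA dehydrogenase, had 0.60 (SE 0.13, edgeR adjusted p = 0.155) and was called by DESeq2 (adjusted p = 0.0440). Acadl had 0.52 (SE 0.25) and Acat1 0.26 (SE 0.13), with edgeR adjusted p of 0.301 and 0.303. Acadl was at 0.23 without K-Ras replicate 1 and at 0.89 without K-Ras replicate 2, and Acat1 was at 0.17 without the latter.

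**Figure D4:**
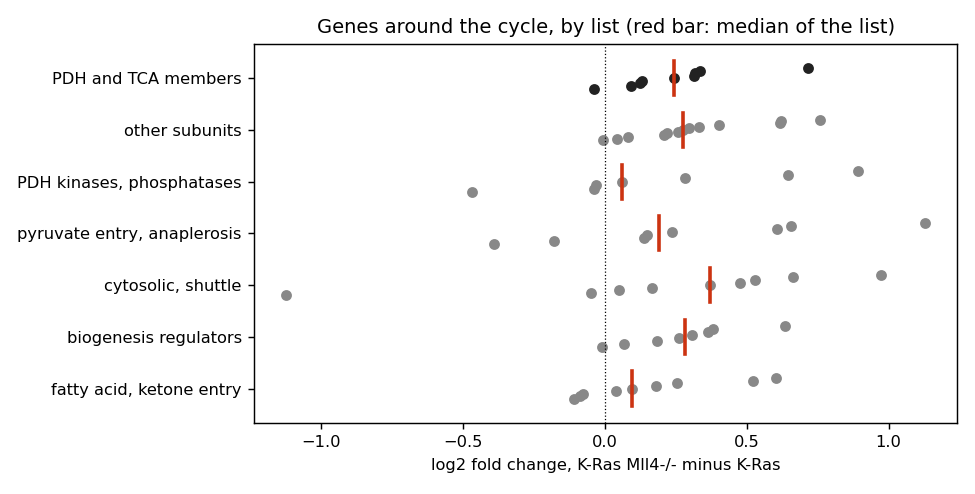
Fitted log2 fold changes, K-Ras Mll4-/- minus K-Ras, of the 9 genes (black) and of 54 genes in 6 lists around the cycle (grey), 1 point per gene, with a red bar at the median of each list. The medians run from 0.06 to 0.37, and the widest spread is among the cytosolic and shuttle genes.

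The profile most like that of the 9 genes was sought by Euclidean distance between log2 CPM values centred on each gene's mean over the 4 samples. The nearest genes outside the lists were Mrps12 (distance 0.0197), Ociad1 (0.0227) and Dpp3 (0.0248), with log2 fold changes of 0.27, 0.27 and 0.24. Dpp3 was at 0.42 with the GC and length offsets. With 4 samples such a likeness is only a description.

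Some of the cell type marker lists differed between the groups, and others overlapped. The 5 epithelial markers (Epcam, Cdh1, Krt8, Krt18, Krt19) were all higher in both K-Ras Mll4-/- samples, with a summed level of 3129 and 3405 CPM against 850 and 1463 CPM in K-Ras. All 5 ciliated markers were lower in both, with summed levels of 45.6 and 52.3 CPM against 86.3 and 537 CPM. Of the endothelial markers 3 of 5 were lower in both (2767 and 2111 CPM against 3624 and 3641 CPM), and of the fibroblast markers 4 of 5 (473 and 502 CPM against 1439 and 665 CPM). None of these markers passed the edgeR quasi-likelihood test. Of these 20, 15 had an unadjusted p under 0.05, where 21.8% of all genes did in either direction. Their lists were set apart from the others by these same values, so the share over all genes is no test of them. Both K-Ras Mll4-/- samples were above both K-Ras samples for 29.9% of all genes and below both for 28.5%. Only 2 of 4 red blood cell, 1 of 3 brown fat and 6 of 7 cardiac muscle markers had enough reads to be tested. No tested alveolar type 2, smooth muscle and pericyte, red blood cell or brown fat marker had an unadjusted p under 0.05. Among the other lists it was seen for 1 immune and 2 club markers, all lower. Alveolar type 1 had 2 higher and 1 lower, and cardiac muscle 1 higher and 1 lower. The part of these markers in the differences of the 9 genes was not tested. The alveolar type 2 sum was between 14956 and 25030 CPM, with overlap of the groups.

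Smooth muscle and pericyte markers summed to 175.8 and 147 CPM in K-Ras Mll4-/- tumours against 243 and 178.5 CPM in K-Ras. The groups did not overlap but lay close. Of these 5 markers 2 were lower and 1, Cspg4, was higher in both K-Ras Mll4-/- samples. Cardiac markers summed to 227 and 395 CPM against 143 and 187 CPM, most of it Myh7 (124 to 370.2 CPM), while Myh6 was at most 1.49 CPM and Actn2 at most 0.664 CPM in a sample. Immune markers summed to 490 and 284 CPM against 592 and 230 CPM. Among them Ptprc, which encodes CD45, was still at 269 and 171 CPM against 274 and 143 CPM. Club markers summed to 971 and 721 CPM against 1161 and 4753 CPM, and alveolar type 1 markers to between 552 and 764 CPM. Club sums did not overlap, with K-Ras replicate 2 far above the rest, and 3 of 5 club markers were lower in both K-Ras Mll4-/- samples. Red blood cell markers summed to at most 31.8 CPM with Hba-a1 at 0 in all samples, and brown fat markers to at most 4.37 CPM with Elovl3 at 0. Most of the red blood cell sum was Alas2 (7.08 to 31.4 CPM). Reads aligned to several places were not counted, so a level of 0 does not show that a transcript was absent.

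**Figure D5:**
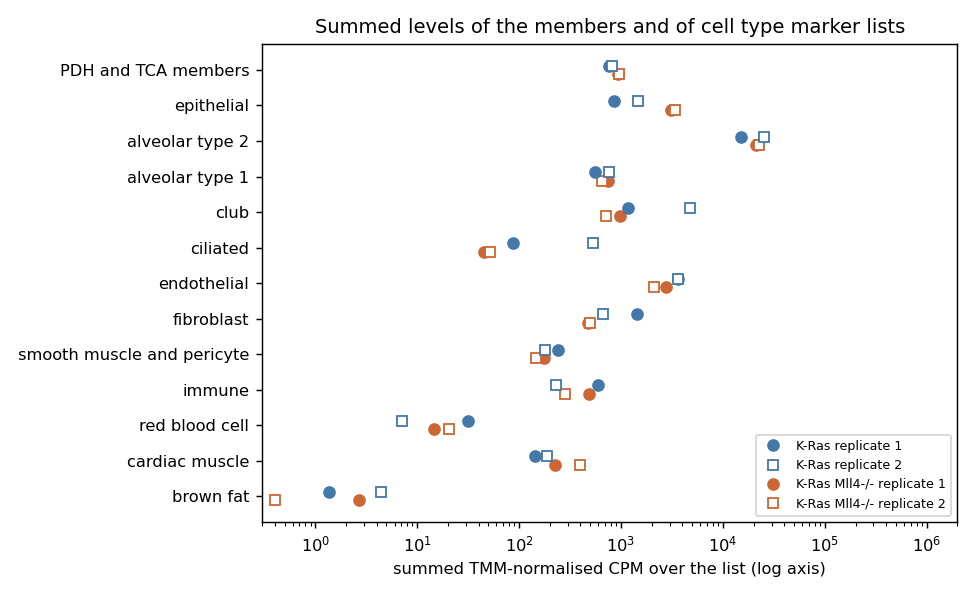
Summed TMM-normalised CPM (log axis) of the 9 genes and of each marker list in the 2 K-Ras samples (blue) and the 2 K-Ras Mll4-/- samples (orange), replicate 1 filled and replicate 2 open. The sum over the 9 genes spans 769 to 948 CPM, a narrower range than the epithelial sum of 850 to 3405 CPM.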

How the data were processed

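RNA sequencing covered 4 CD45-depleted mouse lung tumour samples. The authors deposited raw read counts per gene symbol in the HTSeq layout. CASAVA 1.4, STAR, HTSeq and the build mm9 are named in the submitters' processing notes. The annotation and strand setting are not given in the sources used here, so reads of overlapping antisense genes may not be separable. Reads aligned to several places are tallied apart per the file headers and stayed out of library sizes. All closing tallies together held 60.1% to 65.6% of the listed reads per sample.

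Groups and replicate numbers came from the sample titles. Counts of all genes were fitted with edgeR 4.0.16 in R 4.3.3 (filterByExpr, TMM scaling, robust quasi-likelihood test, Benjamini-Hochberg adjustment, no covariates). CPM is TMM-normalised, a SE is the log2 fold change divided by the square root of F, and 95% intervals use the fit's degrees of freedom. Profiles of likeness used log2(CPM + 0.5). A level of 3 reads corresponds to 0.0830 to 0.114 CPM, which covers counting error only.

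Members and lists were chosen with earlier results of these data known. The text names all members, Kmt2d, the 3 genes with the smallest p in each other list and the 3 nearest profiles. Of the genes this rule picks, 1 is not reported here. Alternatives were other scalings, filters and thresholds, the replicate block, DESeq2 1.42.0, the likelihood ratio test, limma-voom (limma 3.58.1), a non-robust fit, GC and length offsets (mgcv 1.9.3, GENCODE M21, 15863 genes with a value) and leaving out each sample. The fitting step was tested on simulated counts, with planted changes larger than those fitted for the members. The ratio, marker, profile and promoter steps were not part of that test. Promoter windows are from RefSeq on GRCm38.p6, and as the authors' build was mm9 these coordinates were not joined to the counts.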

Additional observations from a re-analysis of the deposited data

How the results depend on the processing

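Against 6 genes called in all, 44 were called without a count filter, 1601 by DESeq2, 1503 by the likelihood ratio test, and 0 by limma-voom or at an adjusted p under 0.01. Of the 9 genes 0 were called, except 1 (Pdha1, log2 fold change 0.71 and 0.72) by DESeq2 and the likelihood ratio test, which called 6 and 4 of the 54 other genes. The median over the 9 genes moved from 0.24 to 0.19 with scaling by the upper quartile or total counts and to 0.21 with GC and length offsets, which turned Idh2 from -0.04 to 0.043. With the offsets Ogdh went from 0.09 to 0.21 and Sucla2 from 0.13 to 0.010. The median over all genes tested moved as well, from -0.013 to -0.0705 with the upper quartile and to -0.0652 with total counts. With the offsets it was 0.0255. The cause of these shifts was not tested.

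The samples share only a number across groups, and deviations of same-numbered samples correlated at 0.243 across genes. The replicate block called 217 genes, 0 of the 9 and 1 of the 54 (Pcx). Combined with the GC and length offsets, the replicate block called 388 genes and again 1 of the 54 (Pcx), with a median of 0.21 over the 9 genes and Idh2 at 0.045.

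With single samples left out, where the lone sample of a group is assumed to vary like the other group, the genes called ranged from 0 to 528, with 528 without K-Ras replicate 1 and 0 without any of the others. The median over the 9 genes ranged from 0.18 to 0.27, Idh2 from -0.27 to 0.23, Ogdh from -0.011 to 0.20 and Pdhb from -0.021 to 0.27. The log2 ratio differences ranged from -0.077 to 0.62 for Idh3a to Idh2, from -0.11 to 0.19 for Idh3a to Idh3b and from -0.058 to 0.048 for Cs to Mdh2. Pdha1, Cs, Idh3a, Sucla2, Fh1 and Mdh2 kept a positive sign in all 16 alternative fits. Each of the 9 genes had at least 831 reads in every sample, and Idh2, with at least 2387, had the largest SE.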
